A study of Mus musculus with 1457 samples.

Results

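The subject is 5 mouse genes switched on by Notch: Hes1, Hey1, Hey2, Heyl and Nrarp. They were picked by name from the 36131 genes held in both deposited count tables, and all 5 were found. The name given to the set, Hes and Hey repressors, covers 4 of them. Hes1, Hey1, Hey2 and Heyl encode basic helix-loop-helix repressors, while Nrarp encodes a small ankyrin-repeat protein that binds the Notch complex and dampens it.

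When a ligand such as Jag1 or Dll4 binds a Notch receptor, the receptor is cut and its intracellular domain joins the DNA-binding protein Rbpj, which then activates Hes and Hey genes. The products repress other genes and often their own. Hey1 and Hey2 are known for their part in arterial endothelium, Heyl for its expression in vascular smooth muscle and pericytes, and Hes1 for its role downstream of Notch in the aorta-gonad-mesonephros region (AGM), where endothelium gives rise to the first blood stem cells.

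The study sequenced 1457 single cells from the AGM of ICR mouse embryos at the embryonic stages E10.5 and E11.5 by the Smart-seq2 method, after sorting on surface proteins and on fluorescent reporters. Endothelium (Endo) carried CDH5, the adhesion protein of vessels, and lacked the blood proteins TER119, CD41, CD45 and KIT and any reporter signal. Hemogenic endothelium (HE), the endothelium that makes blood, had the same surface and showed the GFI1 reporter, or the RUNX1b reporter in the other line. Cells in transition (EHT) had gained CD41 and KIT with GFI1 but not GFI1b, cells of the intra-aortic clusters (IAHC) showed GFI1b as well, and mesenchyme (Mes) lacked CDH5 but showed RUNX1b.

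In the Gfi1/Gfi1b line, E10.5 cells came from embryos Gfi1:Tomato/Tomato Gfi1b:GFP/GFP (labelled KO; 42 HE cells) and Gfi1:Tomato/WT Gfi1b:GFP/WT (het; 74 Endo, 95 HE, 41 EHT and 42 IAHC cells). The E11.5 cells of this line were het (16 Endo, 40 HE and 22 IAHC cells). In the Runx1b line, all at E10.5, HE cells whose titles say KO but whose genotype reads Runx1b:RFP/WT made up 19.01% of all 1457 cells. HE cells of the genotype Runx1b:RFP/WT made up 17.98%, and the line also gave 91 Mes cells Runx1b:RFP/RFP (labelled KO), Mes cells Runx1b:RFP/WT (het, 7.34% of all cells) and 53 Endo cells Runx1b:RFP/WT. A further E10.5 sort of Gfi1:Tomato/WT embryos used ACE, an enzyme on the surface of the aortic wall, and gave 39 ACE+ GFI1+ cells (its HE), ACE+ GFI1- cells (7.96% of all cells) and 14 ACE- GFI1- cells (its Endo). For some het cells of the Gfi1/Gfi1b line (41 Endo, 43 HE and 42 EHT) the title says E11.5 and another field E10.5, so they are called stage-unsettled and were kept apart. Every genotype above holds a reporter allele, so no group of these lines is free of a targeted allele.

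No label names an embryo or a litter, so each of the 19 groups counts as 1 sample and cells are not replicates. Levels are reads of the group's cells added up and scaled to 1000000 reads (CPM), with exact 95% Poisson intervals that cover counting error only. In such sums, fewer cells expressing a gene and less RNA per cell cannot be told apart. Cells held 12 to 5652968 reads, with a median of 598000. Reads of Cdh5 were present in every group, and Runx1 stood at 56.03 to 64.17 CPM in the 3 HE groups sorted on GFI1 with a settled stage and a het genotype, against 0 to 0.777 CPM in their Endo sorts. Cells with more than 1% of reads from globin genes, called erythroid-like, made up 16.8% of E10.5 HE cells, 11.8% of Runx1b het HE cells and 63.6% of E11.5 IAHC cells. Among the 83 such cells, 17 held reads of Hes1, 5 of Hey1, 4 of Nrarp, 1 of Hey2 and 0 of Heyl, at a median of 846923 reads a cell. These shares are set beside the shares of cells below. The erythroid-like cells came from several sorts and are not known to lack these genes, so they are no negative control.

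In the GRCm38 build, Hes1 (ENSMUSG00000022528) lies on chromosome 16 at 30064384-30067796 on the plus strand and Hey1 (ENSMUSG00000040289) on chromosome 3 at 8663359-8667256 on the minus strand. Hey2 (ENSMUSG00000019789) lies on chromosome 10 at 30832359-30842801 on the minus strand and Heyl (ENSMUSG00000032744) on chromosome 4 at 123233556-123249875 on the plus strand. Nrarp (ENSMUSG00000078202), a gene of 1 exon, lies on chromosome 2 at 25180758-25183339 on the plus strand. Its exon overlaps an antisense gene, Gm38287, and since the strand setting of the counting is not given in the sources used here, reads of the pair cannot be told apart. Exons cover 2037 bases in Hes1, 3265 in Hey1, 4593 in Hey2, 5113 in Heyl and 2582 in Nrarp.

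The RefSeq promoter table (GRCm38.p6) held an entry for 2 of the 5 genes, Hey2 and Nrarp. Both are shown because most of the results below turn on Hey2 and Nrarp is a Notch target that stayed low in all of them. The Hey2 stretch is chr10:30842781-30843033 on the minus strand. It holds 250 bases before the RefSeq start of the gene and the first 3 bases after it. The span given above puts the start of Hey2 further upstream, at 30842801, so part of the stretch lies inside that span. The Nrarp stretch is chr2:25180508-25180757 on the plus strand, the 250 bases before the start. Both read 5′ to 3′ along the gene. Capitals mark the letters GTGGGAA, the core that Rbpj binds, or their reverse complement TTCCCAC, in Hey2, and the E-box CACGTG in Nrarp.
Hey2: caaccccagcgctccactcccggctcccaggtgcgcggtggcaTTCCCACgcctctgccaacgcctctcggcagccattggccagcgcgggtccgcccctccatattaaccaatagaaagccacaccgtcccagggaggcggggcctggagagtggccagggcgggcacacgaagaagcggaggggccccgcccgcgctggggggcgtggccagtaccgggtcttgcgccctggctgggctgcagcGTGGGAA
Nrarp: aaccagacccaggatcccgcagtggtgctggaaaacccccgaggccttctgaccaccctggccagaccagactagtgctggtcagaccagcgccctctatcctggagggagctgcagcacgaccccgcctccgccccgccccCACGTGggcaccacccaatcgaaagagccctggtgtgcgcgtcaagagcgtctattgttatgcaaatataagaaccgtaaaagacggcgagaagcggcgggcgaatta
Counted from the RefSeq start of the gene, GTGGGAA begins at position -4 of Hey2 and TTCCCAC at position -207. Over 32851 promoter windows of 300 bases, 6.38% held this motif on either strand and 0.256% held it 2 or more times. The Nrarp stretch held neither form of it and held CACGTG, which 7.15% of windows held, at position -108. CACGCG, a site that Hes proteins bind, or its reverse complement was in neither stretch and in 9.27% of windows. The N-box CACNAG, searched on both strands, matched 2 times in Nrarp and never in Hey2 (42.5% of windows held it), and the GC box GGGCGG matched 3 times in Hey2 and 2 times in Nrarp (35.7% of windows). The GC box matches of Nrarp share 1 base, and no other matches overlap. The matches describe letters in these windows and say nothing of binding.

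Hey2 was far higher in HE than in Endo in all 4 sort sets. The sum of Hes1 was lower in HE in the 3 sets of E10.5 and higher in HE at E11.5. In the ACE set, however, the Hes1 difference was gone without the cell with most reads in each group. Since the contrast of Hey2 and Hes1 was named when the genes were chosen, both genes are given as a description with no test.

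Hey2, which with Hey1 marks arterial endothelium in the embryo, stood at 73.2 CPM in E10.5 HE against 3.28 CPM in E10.5 Endo, at 291.3 CPM in E11.5 HE against 3.97 CPM in E11.5 Endo, at 112.1 CPM in Runx1b het HE against 16.2 CPM in Runx1b Endo and at 125.5 CPM in ACE+ GFI1+ cells against 0.960 CPM in ACE- GFI1- cells. Every HE sum lay above every Endo sum, but the share of all genes for which this holds was not counted. The log2 ratio of HE over Endo was 4.48 at E10.5, 6.20 at E11.5, 2.79 in the Runx1b line and 7.03 in the ACE sorts, and the model over the 4 sets gave 5.15 ± 0.77 (SE). The mean was 150.5 ± 96.4 CPM in HE and 6.09 ± 6.83 CPM in Endo (SD, n = 4 sets each).

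Hes1 stood at 42.7 CPM in E10.5 HE against 157.6 CPM in E10.5 Endo, at 90.3 CPM in E11.5 HE against 57.1 CPM in E11.5 Endo, at 62.5 CPM in Runx1b het HE against 82.5 CPM in Runx1b Endo and at 35.4 CPM in ACE+ GFI1+ cells against 57.5 CPM in ACE- GFI1- cells. The sums of HE and Endo overlapped. The log2 ratios of HE over Endo were -1.88 at E10.5, 0.66 at E11.5, -0.40 in the Runx1b line and -0.70 in the ACE sorts, and the fitted ratio was -0.50 ± 0.39 (SE). The mean was 57.7 ± 24.5 CPM in HE and 88.7 ± 47.5 CPM in Endo (SD, n = 4 sets each). At E11.5, 1 of 16 Endo cells held 70.4% of the Hes1 reads, and without it Endo stood at 18.4 CPM. In the ACE set, 1 of 14 ACE- GFI1- cells held 49.9%, and without it these cells stood at 31.8 CPM, below the 35.4 CPM of ACE+ GFI1+ cells. Without the cell with most reads in each group, ACE+ GFI1+ cells stood at 31.8 CPM as well.

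Per kilobase of exon, which allows levels of different genes to be set side by side, the order of the genes differed between the gates. E10.5 HE held 54.7 CPM per kilobase of Hey1, 20.98 of Hes1, 15.9 of Hey2, 1.06 of Nrarp and 0.378 of Heyl. E10.5 Endo held 77.4 CPM per kilobase of Hes1, 39.6 of Hey1, 1.52 of Nrarp, 0.715 of Hey2 and 0 of Heyl.

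**Figure D1:**
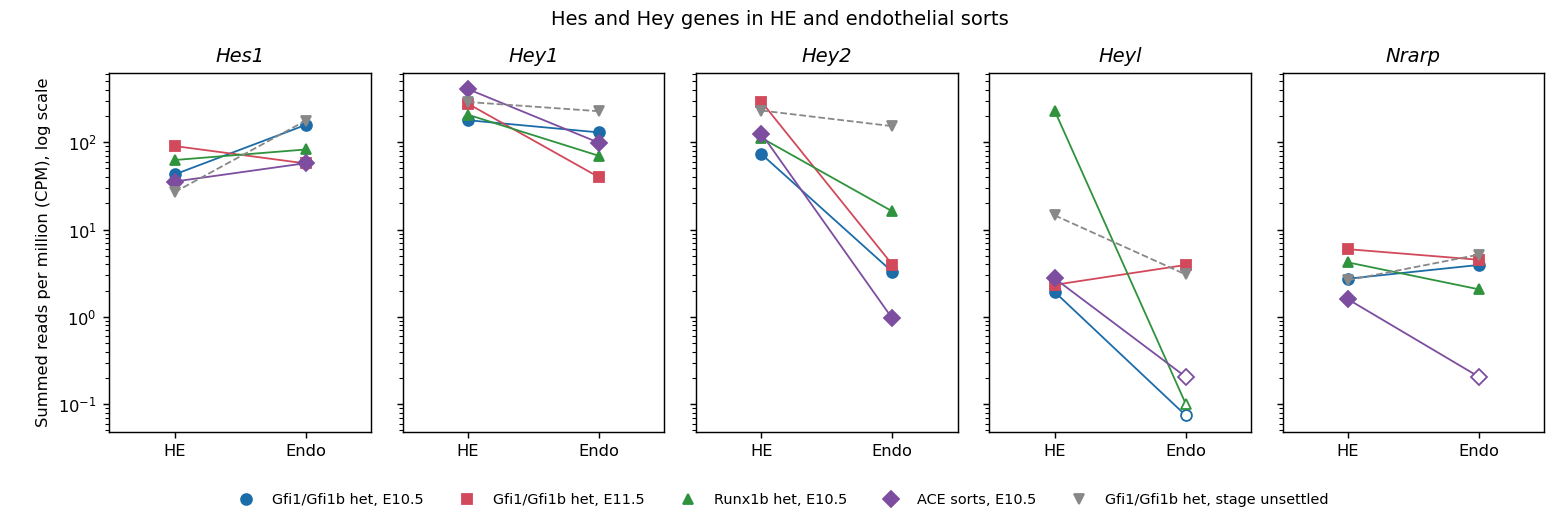
Summed CPM (log scale) of the 5 genes in HE and in Endo, 1 line for each sort set, with the stage-unsettled cells dashed. Open points are sums under 3 reads, drawn at 3 reads. Hey2 is higher in HE in all 4 sets, while Hes1 is lower in HE in the 3 sets of E10.5 and higher at E11.5. In the ACE set, the Hes1 difference is gone without the cell with most reads in each group.

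The other 3 genes were tested over the 4 sets with edgeR's quasi-likelihood test, the sort set as a block and Benjamini-Hochberg adjustment over 14553 genes. This test called 1.4% of the genes, with 0.886% higher and 0.515% lower in HE, and 2817 genes had an unadjusted p under 0.05. None of Hey1, Heyl and Nrarp was among those called. By unadjusted p under 0.05 it was 1 of the 3, Hey1, and DESeq2, which called 17.8% of the same genes, called 2 of the 3, Hey1 and Heyl.

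Hey1 stood at 178.5 CPM in E10.5 HE against 129.4 CPM in E10.5 Endo, at 275.5 CPM in E11.5 HE against 39.7 CPM in E11.5 Endo, at 206.2 CPM in Runx1b het HE against 69.8 CPM in Runx1b Endo and at 405.3 CPM in ACE+ GFI1+ cells against 98.4 CPM in ACE- GFI1- cells. HE was the higher in 4 of 4 sets and the sums did not overlap. The share of all genes with sums apart in this way was not counted, so nothing is read from it. The mean was 266.4 ± 101.2 CPM in HE and 84.3 ± 38.4 CPM in Endo (SD, n = 4 sets each), and edgeR gave a log2 ratio of 1.80 ± 0.35 (SE) with an adjusted p = 0.0788, which missed the threshold of 0.05. The adjusted p of Hey1 was 4.57e-06 with DESeq2, 0.0394 with edgeR and no block for the set, and 0.0963 to 0.309 when edgeR left out 1 set at a time.

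Heyl was low in every set but one. It stood at 1.93 CPM in E10.5 HE against 0 reads in E10.5 Endo, at 2.33 CPM in E11.5 HE against 3.93 CPM in E11.5 Endo, at 229.8 CPM in Runx1b het HE against 1 read in Runx1b Endo and at 2.76 CPM in ACE+ GFI1+ cells against 1 read in ACE- GFI1- cells. The edgeR log2 ratio was 6.13 ± 2.93 (SE) with an adjusted p = 0.326, and leaving out the E11.5 set brought the adjusted p to 0.0273.

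Nrarp, the feedback inhibitor, was low everywhere. It stood at 2.74 CPM in E10.5 HE against 3.93 CPM in E10.5 Endo, at 5.96 CPM in E11.5 HE against 4.50 CPM in E11.5 Endo, at 4.202 CPM in Runx1b het HE against 2.07 CPM in Runx1b Endo and at 1.59 CPM in ACE+ GFI1+ cells against 1 read in ACE- GFI1- cells. The sums overlapped, and edgeR gave a log2 ratio of 1.16 ± 1.05 (SE) with an adjusted p = 0.605.

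Within a set, 1 sample faces 1 sample, so a gene counts as past the threshold when its summed CPM differ at least 2-fold, and the share of all genes with at least 1 CPM that do so is the background. At E10.5, 3 of the 5 genes were past it, against 29% of all genes. At E11.5, 2 of 5 were, against 48%. In the Runx1b line it was 4 of 5, against 33.9%. These counts include Hey2 and Hes1, for which the contrast was named beforehand, so nothing is read from them.

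Arterial and venous markers differed between the same sorts. The summed level of 10 arterial genes was 3745 to 8640 CPM in the 4 HE sums and 685 to 1589 CPM in the 4 Endo sums. That of 10 venous genes was 1015 to 1561 CPM in HE and 3511 to 5117 CPM in Endo. The arterial genes at 0 were Bmx in Runx1b Endo alone, and of the venous genes Nr2f2 was at 0 in E11.5 HE. Their part in the levels of Hey2, Hey1 and Hes1 was not tested.

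Single cells carried much of the little Hey2 in Endo. At E11.5, 1 of 16 Endo cells held all reads of Hey1, Hey2 and Heyl, at 1098 CPM of Hey1, 109.7 CPM of Hey2 and 108.5 CPM of Heyl. That cell had 8785 CPM of the arterial genes, against a median of 247.8 CPM and a highest value of 815.6 CPM in the other Endo cells. In Runx1b Endo, 1 of 53 cells held 93.9% of the Hey2 reads, and without it the sum stood at 1.02 CPM. In E10.5 Endo, 1 of 74 cells held 51.5% of the Hey2 reads. With the cell of highest reads left out, E11.5 Endo held no read of Hey1, Hey2 or Heyl.

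The stage-unsettled cells differed from this pattern for Hey2. It stood at 230.4 CPM in their 43 HE cells against 152.6 CPM in their 41 Endo cells, a log2 ratio of 0.59. Reads of Hey2 were found in 39.02% of these Endo cells, each thinned to 100000 reads (interval 24.2 to 55.5), while the share was 6.85% in E10.5 Endo (2.26 to 15.3) and 7.14% in E11.5 Endo (0.181 to 33.9). Hes1 stood at 26.8 CPM in stage-unsettled HE against 176.1 CPM in stage-unsettled Endo, a log2 ratio of -2.72. Past 2-fold were 2 of 5 genes, Hes1 and Heyl, against 34.2% of all genes. The arterial genes summed to 6275 CPM in stage-unsettled HE and to 4085 CPM in stage-unsettled Endo, above the 685 to 1589 CPM of the other Endo sorts. Stage-unsettled Endo also held 12.9 CPM of Gfi1, against 0 to 0.549 CPM in the other Endo sorts. It held 9.12 CPM of Runx1, against 0 to 2.71 CPM in the other Endo sorts. What part the arterial genes, or cells with reads of Gfi1 or Runx1, had in the Hey2 level was not tested.

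**Figure D2:**
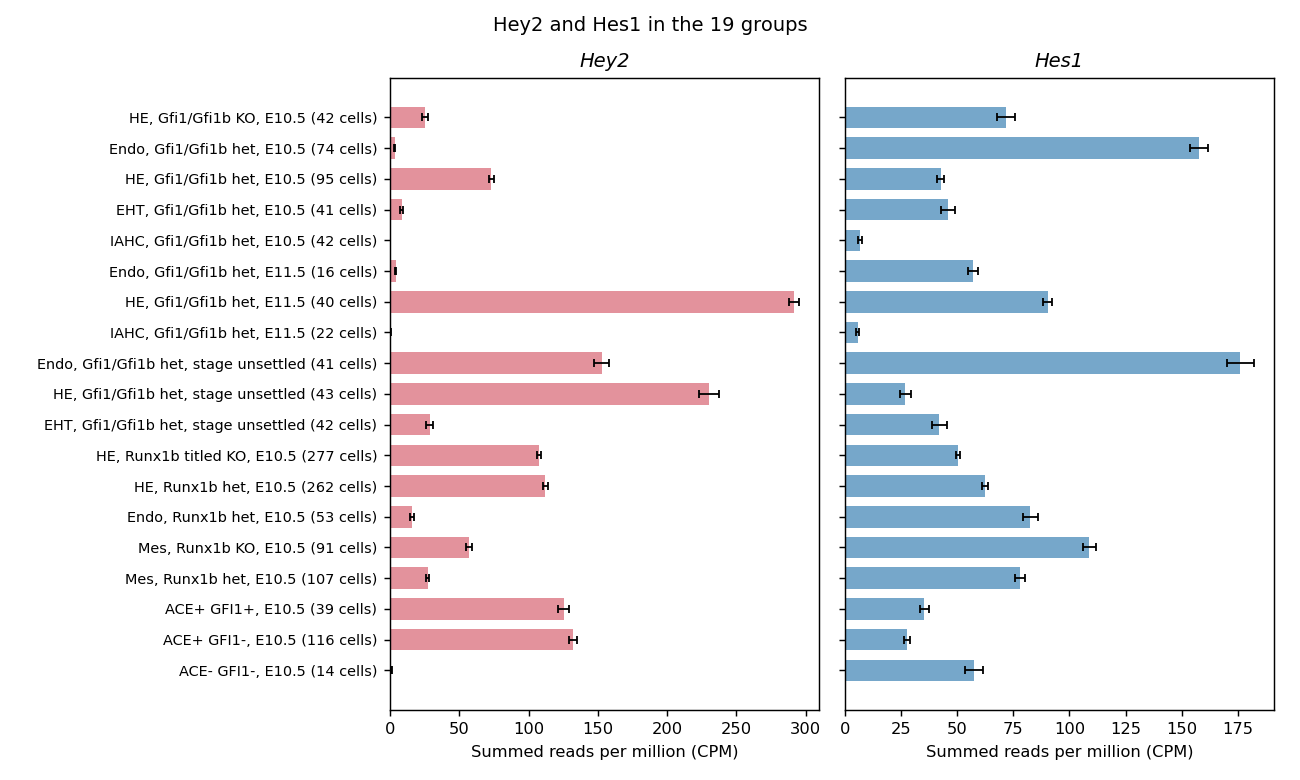
Summed CPM of Hey2 and Hes1 in the 19 groups, with exact 95% Poisson intervals. Hey2 is highest in E11.5 HE (291.3 CPM) and Hes1 in stage-unsettled Endo (176.1 CPM).

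Counted cell by cell, HE held cells with Hey2 alone that Endo nearly lacked. Each cell was thinned to 100000 reads, leaving out shallower ones. At E10.5, 23.2% of 95 HE cells held reads of Hey2 without Hes1, against 2.74% of 73 Endo cells. Reads of Hes1 without Hey2 were in 17.9% of these HE cells, against 65.8% of the Endo cells, and both genes were read in 31.6% of HE cells, against 4.11% of Endo cells. In the Runx1b line, Hey2 without Hes1 was read in 27.9% of HE cells, against 2.22% of 45 Endo cells, and Hes1 without Hey2 in 20.2% of HE cells, against 82.2% of Endo cells. These HE shares mix unlike cells, as only 50% of the cells of this sort held at least 10 of 20 pan-endothelial genes. Before thinning, Hey2 was read in 81.7% of those cells and in 58.02% of the others. Hes1 was read in 61.1% and 65.6%. In the ACE sorts, Hey2 without Hes1 was read in 32.4% of 37 ACE+ GFI1+ cells, against 7.69% of 13 ACE- GFI1- cells. Both genes were read in 59.5% of these ACE+ GFI1+ cells, against 0 of 13 ACE- GFI1- cells, while before thinning it was 66.7% of ACE+ GFI1+ cells against 28.6% of ACE- GFI1- cells. At E11.5, Hey2 without Hes1 was read in 27.03% of 37 HE cells, against 0 of 14 Endo cells, where the upper end of the exact binomial interval is 23.2%. Before thinning, Hey2 was read in 57.9% of E10.5 HE cells and 8.11% of E10.5 Endo cells, while 1.205% of the erythroid-like cells held it. Hes1 was read in 57.9% of E10.5 HE cells and 71.6% of E10.5 Endo cells, while 20.5% of the erythroid-like cells held it.

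The 2 genes were not exclusive within HE. Across cells of 1 gate, Spearman's rho of Hes1 and Hey2 was 0.07 in 95 E10.5 HE cells, 0.15 in 37 E11.5 HE cells, -0.05 in Runx1b het HE cells and 0.05 in 37 ACE+ GFI1+ cells. In Runx1b HE titled KO it was -0.20, in stage-unsettled HE -0.05 and in Gfi1/Gfi1b KO HE -0.13. The rho of Hey2 with the summed arterial genes was 0.61 in E10.5 HE, 0.38 in E11.5 HE, 0.50 in Runx1b het HE and 0.21 in ACE+ GFI1+ cells. With the summed venous genes it was 0.49 in E10.5 HE, 0.34 in E11.5 HE, 0.46 in Runx1b het HE and 0.25 in ACE+ GFI1+ cells. Within these HE sorts the relation was thus not particular to arterial genes, but this did not hold in Runx1b HE titled KO. There the rho of Hey2 was 0.39 with arterial and 0.06 with venous genes. It was 0.29 and 0.42 in stage-unsettled HE and 0.19 and 0.39 in Gfi1/Gfi1b KO HE. In Endo, the rho of Hey2 with arterial and with venous genes was 0.30 and -0.11 at E10.5 and 0.20 and -0.08 in the Runx1b line. It was 0.66 and -0.50 in stage-unsettled Endo and 0.31 and 0.31 in ACE- GFI1- cells. At E11.5 it was 0.45 and -0.45, where 1 Endo cell held all Hey2 reads. The rho of Hes1 with the arterial genes was 0.16 in E10.5 HE, 0.08 in E11.5 HE, 0.01 in Runx1b het HE and -0.09 in ACE+ GFI1+ cells. These values describe cells that share a sort and differ in quality of capture. Some HE sorts also held erythroid-like cells or cells with few pan-endothelial genes, whose part in these values was not tested.

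**Figure D3:**
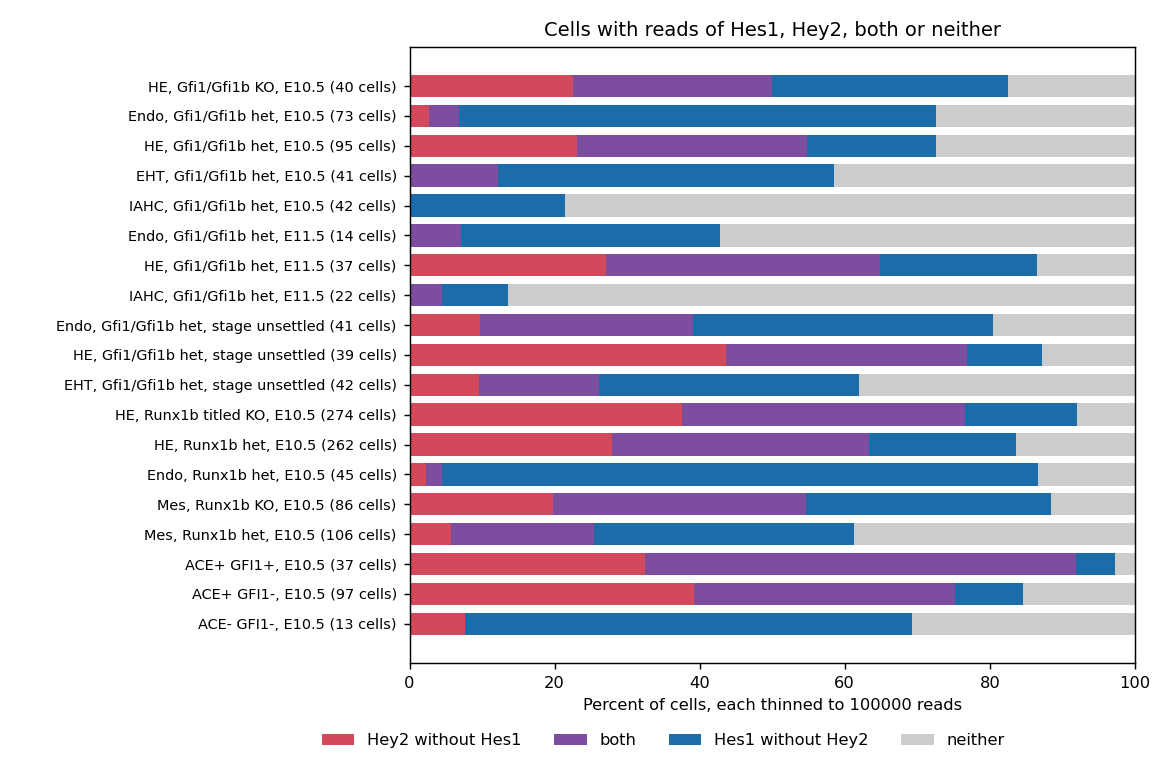
Percent of cells with reads of Hey2 only, of both genes, of Hes1 only or of neither in the 19 groups, each cell thinned to 100000 reads. In E10.5 Endo, 65.8% of cells hold Hes1 without Hey2, and in E10.5 HE 23.2% hold Hey2 without Hes1.

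Along the transition, Hey2 and Hey1 were lower after HE, while Hes1 stood near its HE level in EHT and was low in IAHC. At E10.5, Hey2 stood at 8.30 CPM in EHT against 73.2 CPM in HE, a log2 ratio of -3.14 (counting interval -3.37 to -2.92). In EHT, 1 of 41 cells held 59.6% of the Hey2 reads, and without it the level was 3.45 CPM. Hey1 stood at 74.4 CPM in EHT against 178.5 CPM in HE, a log2 ratio of -1.26. Hes1 stood at 45.8 CPM in EHT against 42.7 CPM in HE, a log2 ratio of 0.10 (counting interval -0.01 to 0.21), which became -0.25 without the erythroid-like cells. Past 2-fold were 2 of 5 genes, against 32.7% of all genes.

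In IAHC at E10.5, all 5 genes were lower than in EHT past 2-fold, against 25.2% of all genes past it in either direction. Hes1 stood at 6.64 CPM in IAHC against 45.8 CPM in EHT, and Hey1 at 7.16 CPM in IAHC against 74.4 CPM in EHT. Hey2 had no read in IAHC, which with 3 reads as the floor of the sum gives a log2 ratio of -6.13, and of -4.86 without the EHT cell with most reads. Heyl, also without a read in IAHC, stood at 2.62 CPM in EHT, where 1 of 41 cells held 81.5% of the reads and the others stood at 0.499 CPM. Nrarp stood at 1.34 CPM in IAHC against 4.86 CPM in EHT.

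At E11.5, where EHT cells with a settled stage were not analysed here, IAHC faced HE. Hey2 stood at 0.418 CPM in IAHC against 291.3 CPM in HE, Hey1 at 26.2 CPM in IAHC against 275.5 CPM in HE and Hes1 at 5.64 CPM in IAHC against 90.3 CPM in HE. All 5 genes were lower in IAHC past 2-fold, against 66% of all genes past it in either direction. The median log2 ratio of all genes was -1.16 here, and the log2 ratios of -9.44 for Hey2, -3.40 for Hey1 and -4.002 for Hes1 lay below it. Without erythroid-like cells the log2 ratios were -7.82 for Hey2, -1.81 for Hey1 and -2.73 for Hes1. The 10 erythroid genes took up 481932 CPM in E11.5 IAHC and 2751 CPM in E11.5 HE.

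The stage-unsettled EHT cells had 28.6 CPM of Hey2 against 230.4 CPM in stage-unsettled HE, 49.7 CPM of Hey1 against 288.6 CPM in stage-unsettled HE, and 41.97 CPM of Hes1 against 26.8 CPM in stage-unsettled HE. Past 2-fold were 3 of 5 genes, all lower in EHT, against 41% of all genes. Hes1, at a log2 ratio of 0.65, was again not among them. The 3 comparisons of EHT with HE and IAHC with HE share their HE cells with the comparisons to Endo.

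**Figure D4:**
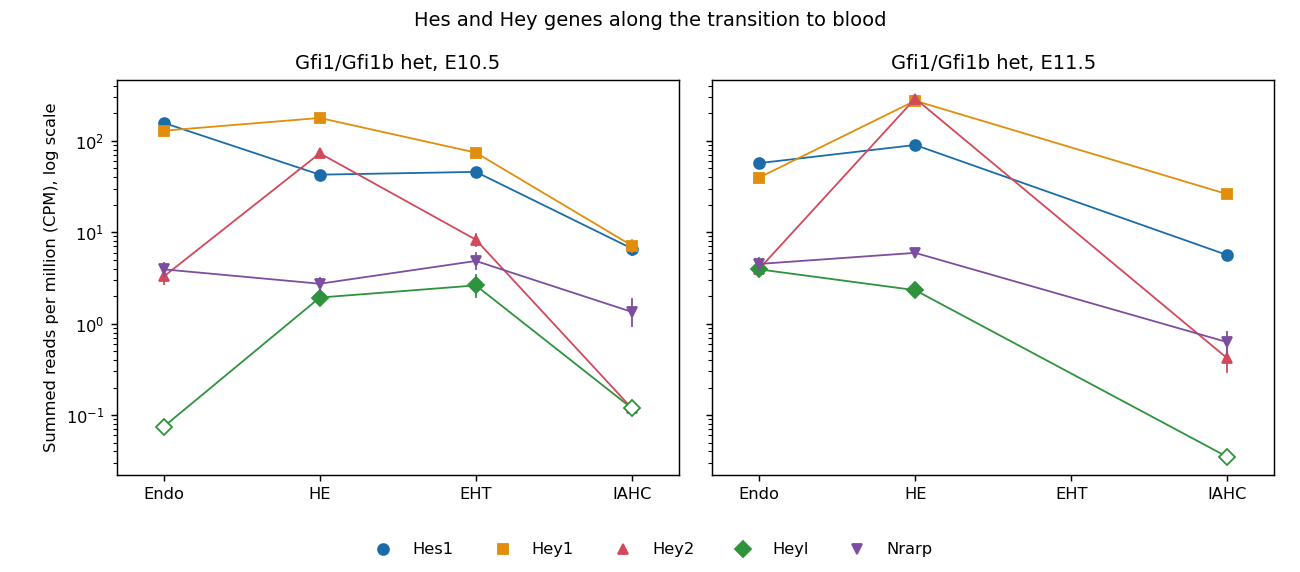
Summed CPM (log scale) of the 5 genes in the Gfi1/Gfi1b het sorts at E10.5 and E11.5, with 95% Poisson intervals. Open points are sums under 3 reads drawn at 3 reads (in E10.5 IAHC the point of Heyl covers that of Hey2), and the E11.5 lines pass over EHT, for which no value is drawn. Hey2 peaks in HE at both stages, and all 5 genes are lowest in IAHC except Heyl, which has no read in E10.5 Endo either.

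Between the stages, the sums of Hes1 and Hey1 differed in opposite directions in HE and in Endo, by less than 2-fold for Hey1 in HE. Hes1 stood at 90.3 CPM in E11.5 HE against 42.7 CPM in E10.5 HE (log2 ratio 1.08), and at 57.1 CPM in E11.5 Endo against 157.6 CPM in E10.5 Endo (-1.46). Hey1 stood at 275.5 CPM in E11.5 HE against 178.5 CPM in E10.5 HE (0.63), and at 39.7 CPM in E11.5 Endo against 129.4 CPM in E10.5 Endo (-1.70). Without the cell with most reads in each group, the Hes1 ratio in Endo was -2.82, and the Hey1 reads of E11.5 Endo were gone. Hey2 was higher in E11.5 HE, at 291.3 CPM against 73.2 CPM in E10.5 HE (1.99), while E11.5 Endo had 3.97 CPM against 3.28 CPM in E10.5 Endo. In HE, 3 of 5 genes were past 2-fold, against 39.2% of all genes. Without the erythroid-like cells 1 gene was, Hey2, at a log2 ratio of 1.60, with Hes1 at 0.74 and Nrarp at 0.73. Over all cells, the median log2 ratio of all genes was 0.23 in HE. The E10.5 HE cells with at least 10 of 20 pan-endothelial genes had 238.6 CPM of Hey1, and the other 17 cells had no read of it. How much of the Hey1 ratio in HE came from such cells was not tested.

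In Endo, 3 of 5 genes were past 2-fold between the stages, against 37% of all genes. They included Heyl, whose E11.5 reads all lay in 1 cell. In IAHC, 2 of the 3 genes with at least 1 CPM were past it, against 65.2% of all genes. Hey1 stood at 26.2 CPM in E11.5 IAHC against 7.16 CPM in E10.5 IAHC, but 1 of 22 cells held 78.7% of the E11.5 reads, and without it the level was 5.77 CPM. Nrarp stood at 0.628 CPM in E11.5 IAHC against 1.34 CPM in E10.5 IAHC, a log2 ratio of -1.10 that became 0.33 without the erythroid-like cells.

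In the ACE sorts, Hey2 and Hey1 differed by more between ACE+ and ACE- cells without GFI1 than between GFI1+ and GFI1- cells with ACE, which was not tested. ACE+ GFI1- cells, which lack the HE reporter, had 131.9 CPM of Hey2 against 0.960 CPM in ACE- GFI1- cells, and 511.8 CPM of Hey1 against 98.4 CPM in ACE- GFI1- cells. Of the Hey1 reads of ACE- GFI1- cells 71.1% lay in 1 of 14 cells, and without it these cells stood at 30.98 CPM. Heyl stood at 8.26 CPM in ACE+ GFI1- cells against 1 read in ACE- GFI1- cells, and Nrarp at 3.82 CPM in ACE+ GFI1- cells against 1 read in ACE- GFI1- cells. Hes1 was lower, at 27.7 CPM in ACE+ GFI1- cells against 57.5 CPM in ACE- GFI1- cells, where 1 of 14 cells held 49.9% of the reads and the others stood at 31.8 CPM. Without the cell with most reads in each group, the log2 ratio of Hes1 was -0.42. All 5 genes were past 2-fold, against 40.8% of all genes. The arterial genes summed to 10160 CPM in ACE+ GFI1- cells and 1261 CPM in ACE- GFI1- cells, and their part in these levels was not tested.

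Within ACE+ cells, GFI1+ and GFI1- cells had similar sums of the 2 Hey genes. Hey2 stood at 125.5 CPM in ACE+ GFI1+ cells against 131.9 CPM in ACE+ GFI1- cells, a log2 ratio of -0.07 (counting interval -0.13 to -0.02). Hey1 stood at 405.3 CPM in ACE+ GFI1+ cells against 511.8 CPM in ACE+ GFI1- cells, a log2 ratio of -0.34 (-0.37 to -0.31). Hes1 stood at 35.4 CPM in ACE+ GFI1+ cells against 27.7 CPM in ACE+ GFI1- cells, a log2 ratio of 0.35. Past 2-fold were 2 of 5 genes, the low Heyl and Nrarp, against 20.1% of all genes. With 1 sample a side, a small ratio does not show that the sorts are alike.

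In the cells labelled Gfi1/Gfi1b KO, the sum of Hey2 was lower and that of Hey1 near its het level, but the 2 sorts differed in erythroid-like cells. These made up 9.52% of KO HE cells and 16.8% of het HE cells. In the het HE cells with at least 10 pan-endothelial genes, Hey1 stood at 238.6 CPM, Hes1 at 55.02 CPM and Hey2 at 97.9 CPM, above the sums of the whole sort given next. Hey2 stood at 25.1 CPM in KO HE against 73.2 CPM in het HE at E10.5, a log2 ratio of -1.55 (counting interval -1.69 to -1.41), yet after thinning 50% of KO HE cells held reads of it, against 54.7% of het HE cells. The highest cell held 102.3 CPM in KO HE and 883.5 CPM in het HE. Hes1 stood at 71.7 CPM in KO HE against 42.7 CPM in het HE, a log2 ratio of 0.75, and Hey1 at 182.2 CPM in KO HE against 178.5 CPM in het HE. Nrarp stood at 6.61 CPM in KO HE against 2.74 CPM in het HE. Heyl had no read in KO HE against 1.93 CPM in het HE, where 1 of 95 cells held 77.3% of the reads and the others stood at 0.443 CPM. Past 2-fold were 3 of 5 genes, against 26.9% of all genes. Reads of the targeted genes were higher in the KO cells, at 218.9 CPM of Gfi1 in KO HE against 55.2 CPM in het HE and 91.6 CPM of Gfi1b in KO HE against 52.1 CPM in het HE. The part of each gene that the reporter replaces is not given in the sources used here, so these reads do not check the label.

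In the Runx1b line, Runx1 stood at 1.47 CPM in HE cells titled KO against 17.8 CPM in het HE. Heyl was the gene that differed most, at 6.85 CPM in HE titled KO against 229.8 CPM in het HE, and the 1 gene of 5 past 2-fold, against 22.3% of all genes. Most Heyl reads of het HE lay in cells with few pan-endothelial genes. The 50% of its cells in which 10 or more of the 20 pan-endothelial genes were read had 20.6 CPM of Heyl, found in 7.63% of them. The other cells of the sort had 412.6 CPM, found in 74.05% of them. The mesenchyme genes summed to 326 CPM in the cells with 10 or more pan-endothelial genes and 9054 CPM in the others. Over the whole sort, the sum was 107.4 CPM in HE titled KO and 4984 CPM in het HE, and it reached 223.001 CPM, in stage-unsettled HE, in the groups other than Mes and het HE. Within cells of at least 10 pan-endothelial genes, the Heyl log2 ratio of titled KO over het was -1.59 in place of -5.07.

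The other genes of the Runx1b line depended on the same cells. Hey1 stood at 340.7 CPM in HE titled KO against 206.2 CPM in het HE, a log2 ratio of 0.72 that became -0.12 within pan-endothelial cells. Hey2 stood at 107.4 CPM in HE titled KO against 112.1 CPM in het HE, a log2 ratio of -0.06 that became -0.77. Hes1 stood at 50.5 CPM in HE titled KO against 62.5 CPM in het HE, a log2 ratio of -0.31 that became -0.50.

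Mesenchyme sorted on RUNX1b was where Heyl was found beside het HE. Heyl stood at 149.95 CPM in het Mes against 229.8 CPM in het HE, while Hey1 stood at 71.3 CPM in het Mes against 206.2 CPM in het HE and Hey2 at 27.2 CPM in het Mes against 112.1 CPM in het HE. Past 2-fold were 3 of 5 genes, all lower in Mes, against 26.2% of all genes. Between the Mes genotypes, Heyl stood at 143.7 CPM in KO Mes against 149.95 CPM in het Mes, Hey2 at 57.01 CPM in KO Mes against 27.2 CPM in het Mes and Nrarp at 3.48 CPM in KO Mes against 0.953 CPM in het Mes. Past 2-fold were 2 of 5 genes, Hey2 and Nrarp, against 25.1% of all genes. The log2 ratio of Hey2 was 1.07, and 0.93 without the erythroid-like cells. Runx1 stood at 20.1 CPM in KO Mes against 35.3 CPM in het Mes, and 14.3% of KO Mes cells held at least 10 pan-endothelial genes, against 3.74% of het Mes cells.

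Over the 19 groups, Hes1 ranged between 5.64 CPM in E11.5 IAHC and 176.1 CPM in stage-unsettled Endo, and Hey1 between 7.16 CPM in E10.5 IAHC and 511.8 CPM in ACE+ GFI1- cells. Hey2 ranged between 0 reads in E10.5 IAHC and 291.3 CPM in E11.5 HE, and Heyl between 0 reads in 5 groups and 229.8 CPM in Runx1b het HE. Nrarp never passed 7.46 CPM, its level in HE titled KO. In the order of levels, the exact counting interval of the ratio between neighbours held 1 for 5 of 18 pairs of neighbours for Hes1, 4 for Hey1, 3 for Hey2, 11 for Heyl and 15 for Nrarp. Such pairs did not differ beyond counting error. They were E11.5 Endo and E10.5 Endo, stage-unsettled EHT and Runx1b het Mes, and Runx1b het Mes and Gfi1/Gfi1b KO HE for Hey2, and included E11.5 IAHC and E10.5 IAHC for Hes1.

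The genes most like Hey2 in their level over the 19 groups, by Pearson's r of log2(CPM + 1) among 9505 genes, were Pde3a (0.95), Lama3 (0.95), Fbn1 (0.95), Synpo (0.94), Gata6 (0.93) and Fgfr1 (0.93). Pde3a encodes a phosphodiesterase, Lama3 a laminin chain, Fbn1 a fibrillin of the matrix, Synpo an actin-binding protein, Gata6 a transcription factor and Fgfr1 a receptor for fibroblast growth factors. Those most like Hes1 were Yap1 (0.84), Zfp948 (0.84), Sh3bp4 (0.83), Tulp3 (0.83), Ccnyl1 (0.82) and Tcf7l1 (0.82). Hey2 correlated with Hey1 at 0.83 and with Hes1 at 0.40. Some groups share a gate or a line, and no label separates embryos or library batches, so these values are descriptions. With Spearman's rho in place of r, 4 of the 6 genes of Hey2 and 1 of the 6 of Hes1 were among the first 6 again.

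Of the pathway around these genes, 1 of the 59 genes of 7 lists that were tested was called in HE against Endo, the ligand gene Jag1. This is 1.69% of them, near the 1.4% of all genes. It rose in HE to 336.8 ± 215.02 CPM, against 64.05 ± 20.4 CPM in Endo (SD, n = 4 sets each), a log2 ratio of 2.35 ± 0.31 (SE) with an adjusted p = 0.0382 by edgeR. The call was lost without the ACE set (adjusted p = 0.202), without the E10.5 set of the Gfi1/Gfi1b line (0.0907), without the Runx1b set (0.166) and with the stage-unsettled cells as a further set (0.0531). The other ligands did not pass. Dlk1 had a log2 ratio of 4.46 ± 2.18 (SE), with a mean of 0.303 CPM in Endo. Jag2 had a log2 ratio of 1.75, Dll4 of 1.26 and Dll1 of -2.16. The median over 5 ligands tested was 1.75, against 0.09 over all 14553 genes.

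None of the 4 receptors passed, with log2 ratios of 2.399 for Notch3, 0.70 for Notch2, 0.53 for Notch4 and 0.09 for Notch1, and a median of 0.62. Of the Fringe genes, whose products add sugars to the receptors, 0 of 3 passed, with Rfng at 1.87 (adjusted p = 0.0509 by edgeR), Lfng at 0.83 and Mfng at 0.11, and a median of 0.83. Of 14 genes for cutting and maturing Notch and its ligands, 0 passed, with Furin at 1.62, Psen2 at 1.27, Aph1a at -1.14 and Neurl1b at -2.14, and a median of 0.33. The ratio of Neurl1b had an SE of 3.89, with means of 0.601 CPM in HE and 0.644 CPM in Endo. Of 18 genes of the nuclear complex and its corepressors, 0 passed, with a median of 0.43. Numbl was at 4.90 ± 3.04 (SE), Tle2 at 4.57 ± 1.79 and Aes at 2.38 ± 0.45. Numbl and Tle2 were low, with means of 0.616 and 0.661 CPM in Endo.

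Of 16 other Notch targets and Hes relatives, 11 were tested and 0 passed. Ccnd1, a cyclin gene, had a log2 ratio of -4.05 (13.6 ± 14.4 CPM in HE and 152.4 ± 39.7 CPM in Endo, SD, n = 4 sets each; adjusted p = 0.0596 by edgeR). Bhlhe40 had -1.93, Gata2 1.69 and Efnb2 1.66, and the median was 0.55. Of the 4 Id genes, whose products block helix-loop-helix factors, 0 passed, with a median of 1.17. Id4 was at 1.95 ± 2.33 (SE), Id1 at 1.37, Id2 at 0.96 and Id3 at 0.66. Dll4 and Efnb2 also belong to the arterial genes and Gata2 to the blood genes used as markers. DESeq2 called 24 of the 59 genes tested in these 7 lists (40.7%), against 17.8% of all genes.

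**Figure D5:**
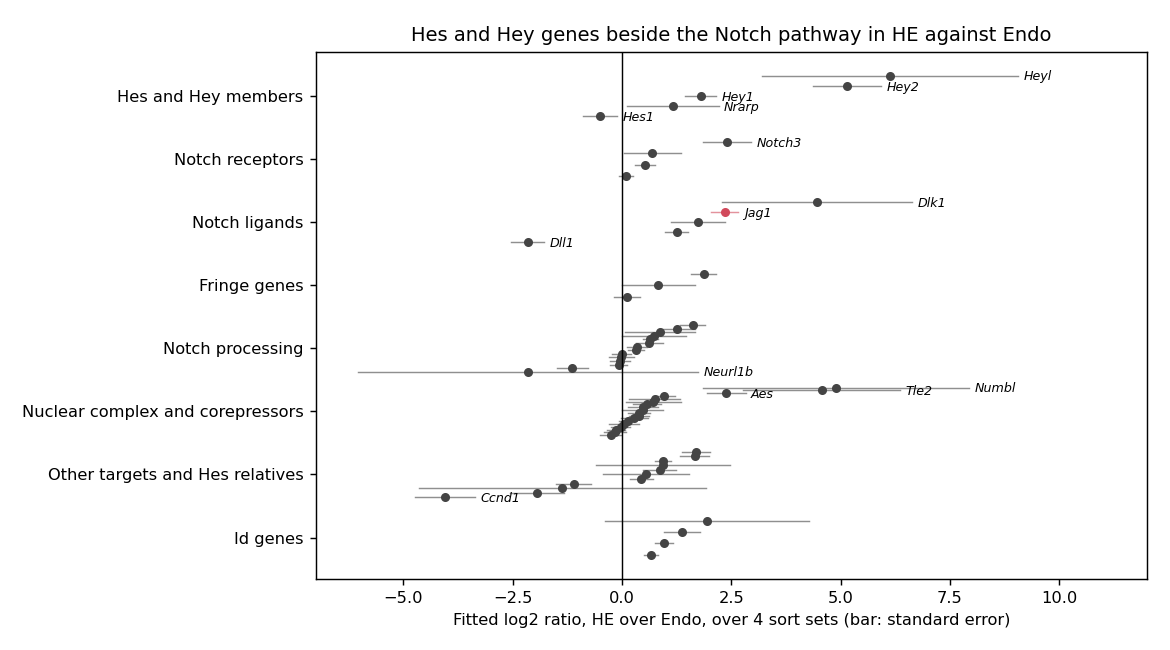
Fitted log2 ratio of HE over Endo over the 4 sort sets (bar: standard error) for the 5 genes and for the tested genes of 7 Notch pathway lists. Jag1, in red, is the gene of the lists with an adjusted p under 0.05 by edgeR, and the row of the 5 genes carries no colour for calls.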

How the data were processed

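The authors deposited read counts per gene and cell in 2 tables of whole numbers, not normalized. Per the submitters' processing notes, R 3.6.2, HTSeq 0.6.1p1, STAR 2.4.2a and bcl2fastq were used with the GRCm38 build; the annotation and the strand setting were not given there. The 36131 genes held whole in both tables were kept, which left out 10.1% of the reads of the table of ACE sorts. Cells were grouped by title into 19 groups and their counts added up, as CPM. HE was set against Endo over 4 sort sets with edgeR 4.0.16 (filterByExpr, TMM, set as block, 3 residual degrees of freedom, adjusted p threshold 0.05) in R 4.3.3. DESeq2 1.42.0 was an alternative, and the edgeR step was tested on simulated data. The other 17 comparisons have 1 sample a side and no test. Sums under 3 reads were set to 3 reads for ratios, and a ratio counts as past the threshold at 2-fold with at least 1 CPM in the higher group. Intervals are exact (Poisson for sums, Clopper-Pearson for shares) and cover counting error only, since reads carry no molecular identifiers. Nothing says that the sets came from separate litters, so p-values measure the spread between these sorts. No step for doublets was run, as each well was sorted 1 cell, per the labels.

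The genes and lists were chosen with earlier results of these data known. Text names the 5 genes, called list genes, otherwise up to 4 list genes of largest ratio, and the 6 genes most like Hes1 and Hey2 among genes with at least 20 CPM in at least 2 groups. Promoter letters are from RefSeq. Python 3.11.15, numpy 2.4.6, scipy 1.17.1, pandas 2.3.3 and matplotlib 3.10.9 were used.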

Additional observations from a re-analysis of the deposited data

Results flagged for a closer look

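For Heyl, 1 of the 4 HE sums stood far from the other 3, that of the Runx1b line at 229.8 CPM, and 1 of the 4 Endo sums did, that of E11.5 at 3.93 CPM, held by a single cell. Chance marks about 1 in 20 sets of 4 values in this way if the values are normally spread. The rule was applied to the HE sums, the Endo sums and the log2 ratios of each gene.

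Some ratios pointed in opposite directions in groups under the same contrast, and none of these differences was tested. The log2 ratio of Hes1 in HE over Endo was 0.66 at E11.5, against -1.88 in the E10.5 set of the same line, -0.40 in the Runx1b line and -0.70 in the ACE sorts. That of Heyl was -0.76 at E11.5, against 4.69 in the E10.5 set of the same line, 11.14 in the Runx1b line and 3.74 in the ACE sorts, with sums under 3 reads set to 3. Most Heyl reads of E10.5 HE and of Runx1b het HE lay in cells with few pan-endothelial genes.

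In the Runx1b line, the log2 ratio of Hes1 was -0.31 for HE titled KO over het HE and 0.48 for KO Mes over het Mes. That of Hey2 was -0.062 for HE titled KO over het HE and 1.07 for KO Mes over het Mes. For E11.5 over E10.5, the log2 ratio of Hes1 was 1.08 in HE and -1.46 in Endo, and that of Hey1 was 0.63 in HE and -1.70 in Endo. The median log2 ratio of all genes was 0.23 in HE.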

How the results depend on the processing

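The share of tested genes called in HE against Endo, 1.4% with edgeR, was 17.8% with DESeq2 (2587 genes), 3.04% with no block for the sort set (442), 6.27% with cells thinned to 100000 reads (723), 3.47% with pan-endothelial cells only (504), 0.599% with no filter on low counts and 0% to 0.895% when 1 set was left out at a time. Of Hey1, Heyl and Nrarp, 0 were called, against 2 with DESeq2, 1 with no block, 1 with thinning, 1 with pan-endothelial cells and 0 to 1 when a set was left out. Of the pathway lists, 1 gene was called, against 24 with DESeq2, 6 with no block, 10 with thinning, 10 with pan-endothelial cells, 5 with the stage-unsettled cells as a further set and 0 to 1 when a set was left out. At a fold threshold of 1.5, the genes of the 5 past it were 4 in place of 2 for E11.5 HE over Endo, 4 in place of 2 for stage-unsettled HE over Endo and 3 in place of 1 for HE titled KO over het. For E11.5 over E10.5 HE, and for KO over het Mes, 1 gene was past it without erythroid-like cells, with the mean of per-cell CPM and with TMM factors, in place of 3 and 2. For E11.5 over E10.5 IAHC it was 1 in place of 2 with thinning, with the mean of per-cell CPM, with TMM factors and without the cell with most reads. With thinning, it was 3 in place of 5 for ACE+ GFI1- over ACE- GFI1-, and 1 in place of 2 for ACE+ GFI1+ over ACE+ GFI1-, which was 0 with the mean of per-cell CPM. The log2 ratio of Nrarp for E11.5 over E10.5 IAHC, -1.10, was 0.33 without erythroid-like cells and 0.0049 with TMM factors, whose value for E11.5 IAHC was 0.504. That of Heyl for E11.5 over E10.5 Endo, 5.72, was -0.11 without the cell with most reads. The causes were not tested. Leaving out the cell with most reads, and keeping pan-endothelial cells for comparisons of 1 sample a side, were chosen after seeing the data. HE and Endo were paired by sort set, the block of the edgeR fit. By replicate number, no paired analysis was possible because the numbers in the labels count cells. The 14 to 16 cells of the smallest Endo sorts and sums of 0 to 3 reads for Heyl and Nrarp limit what these data can show.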
